A study of Homo sapiens with 10 samples.

Results

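The regions described here are stretches of the genome that carried acetylated lysine 27 of histone H3 (H3K27ac) in both of 2 prostate cancer cell lines and lay more than 100 kb from every annotated transcription start site (TSS) of a protein-coding gene. The lines were C4-2B, a castration-resistant prostate adenocarcinoma line, and C4-2BER, its enzalutamide-resistant derivative, which the labels call neuroendocrine like. C4-2BER is kept continuously in enzalutamide, an antiandrogen drug. Each line is a single model, and C4-2BER differs from C4-2B in both its resistance history and the drug in its medium, so these cannot be told apart. Chromatin immunoprecipitation sequencing (ChIP-seq) was run for H3K27ac and for acetylated lysine 18 (H3K18ac), with 2 libraries per mark and line and 1 input per line. Peaks of the 2 H3K27ac lists that overlapped by at least 1 bp were merged, and regions with a peak from both lists, narrower than 15 kb and over 100 kb from a protein-coding TSS of GENCODE release 44 were kept. This gave 4235 remote shared regions of 45431 shared and 89877 merged regions. A further 7 remote shared regions were 15 kb or wider and were left out by the rule.

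H3K27ac marks active promoters and enhancers, and H3K18ac, which is laid down by the same pair of acetyltransferases, CBP and p300, usually accompanies it. Enhancers act on genes from afar, and in prostate cells they are bound by forkhead (FOXA1), GATA and HOX factors. Far from protein-coding genes, acetylated chromatin can also mark promoters of long non-coding RNAs (lncRNAs) and of transposable elements, the mobile repeats that fill much of intergenic DNA.

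The values are fold enrichments over background that the authors' peak caller gave each peak. A region's value in a line is the mean over its peaks weighted by length, and a log2 ratio is C4-2BER over C4-2B. Since the replicates were merged before peaks were called, each value has no replicate error and no difference between the lines could be tested. The number of reads behind each value is unknown. Intervals in brackets are 95% Wilson intervals and cover only counting over regions. The choice of regions used the H3K27ac peaks, so H3K27ac values are a description, while H3K18ac was not used in the choice.

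The sequences that the account below turns on are given first, from the hg38 reference. For 2 members the 200 bases with the most motif matches inside peaks of both lines are shown, with every match in capitals. They are a member between CCDC179 and LUZP2 with one of the 5 largest rises in C4-2BER (chr11:23920936-23921135) and the one with the largest fall between DCDC2C and SOX11 (chr2:4140042-4140241), both on the plus strand. The latter member lies 295 kb from the DCDC2C TSS and 1551 kb from that of SOX11.
CCDC179-LUZP2 member: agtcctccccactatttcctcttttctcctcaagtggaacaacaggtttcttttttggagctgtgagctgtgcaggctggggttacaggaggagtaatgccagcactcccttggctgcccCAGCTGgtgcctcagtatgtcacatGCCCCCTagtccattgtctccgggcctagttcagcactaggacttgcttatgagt
DCDC2C-SOX11 member: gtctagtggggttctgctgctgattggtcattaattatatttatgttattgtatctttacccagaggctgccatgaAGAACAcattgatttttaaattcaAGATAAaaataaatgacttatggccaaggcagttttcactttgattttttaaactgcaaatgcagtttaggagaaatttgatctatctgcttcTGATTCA
The first stretch (53.0% G and C) holds the E-box CAGCTG and GCCCCCT, the reverse complement of AGGGGGC, the core of the CTCF motif. The other stretch (33.0% G and C) holds AGAACA, the half-site letters of steroid hormone receptors, the GATA motif AGATAA and TGATTCA, a match to the AP-1 motif TGANTCA. A match is a description of the letters, not a binding site.

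Many members share repeated DNA. A repeat shared by 14 members that were nearly all higher in C4-2BER is shown by 150 bases of 2 members (chrX:90854811-90854960, plus strand, and chr5:34421765-34421914, minus strand), with the grainyhead motif AACCGGTT in capitals. These 2 were taken only from members that hold the motif, and the bases are centred on it. The member of the repeat with the largest ratio (chr16:65813188-65814526) does not hold it.
First copy of the 14-member repeat: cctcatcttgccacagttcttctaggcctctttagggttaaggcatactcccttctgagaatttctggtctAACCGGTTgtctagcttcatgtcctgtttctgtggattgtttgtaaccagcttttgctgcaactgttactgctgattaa
Second copy of the 14-member repeat: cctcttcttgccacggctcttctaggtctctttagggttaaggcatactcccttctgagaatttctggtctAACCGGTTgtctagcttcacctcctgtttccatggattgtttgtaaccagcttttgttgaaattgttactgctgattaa

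The remote shared regions were short and of moderate height. Their median width was 1251 bp (quartiles 706 and 2138.5 bp, range 267 to 13927 bp). The median H3K27ac fold enrichment was 4.00 in C4-2B (quartiles 2.98 and 6.17, range 1.70 to 38.7) and 4.21 in C4-2BER (quartiles 2.91 and 6.42, range 1.75 to 27.4). They lay a median of 219 kb from the nearest protein-coding TSS (quartiles 141 and 403 kb), and the farthest was 5431 kb away on the short arm of chromosome 21, before TPTE. The 3 farthest members were all there (chr21:5089879-5090770, chr21:5128279-5128554 and chr21:5154627-5155053), each with a near-identical copy elsewhere in the genome, and the latter 2 had no H3K18ac peak in either line.

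Most members lay in DNA without annotated genes or within lncRNA genes. Of the 4235, 2121 (50.1%) lay outside genes of both kinds, 1644 (38.8%) within a lncRNA gene and 529 (12.5%) within a protein-coding gene, where 21 touched an exon. Long genes whose start is far away held the most, with 23 members each in FBXL17 and NAALADL2, 14 each in ADARB2 and STXBP5L and 12 in MAML3. MAML3, a coactivator of Notch signalling, had a median log2 ratio of 0.68 over its 12 members, with 3 higher in C4-2BER by at least 2-fold and none in C4-2B. Over all members 5.22% and 5.38% were past those limits, and over all shared regions 2.64% and 4.67%. MAML3 was singled out after its values were seen, and the other hosts named here had medians of -0.02 to 0.25. At 2.5 to 100 kb from a TSS, 22546 shared regions under 15 kb served as the comparison, and there 17.8% lay within a lncRNA gene and 60.0% within a protein-coding gene. The 3 members just inside the distance limit (100023 to 100074 bp from a TSS, beside B3GAT1, HUNK and SMAD2) had folds of 2.82 to 4.76 in C4-2B and 2.51 to 5.99 in C4-2BER, and the 3 regions just outside it (99903 to 99969 bp, beside PRKD1, FAM13C and ZPLD1) had 2.69 to 3.39 and 3.16 to 7.36. At the width limit, the widest members (13033 to 13927 bp, beside ST3GAL1, CRYBB2 and MYC) had folds of 4.30 to 5.43 and 3.24 to 6.75. The 3 regions just past it (15474 to 17399 bp, beside GADD45G, MYC and DIPK2B) reached 6.29 to 21.5 in C4-2B and 6.73 to 11.3 in C4-2BER.

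Most of the 10 and of the 100 strongest remote members were at annotated lncRNA promoters, but most of the top 424 were not. A window from 2000 bp before to 500 bp after a lncRNA TSS was counted as a promoter. Of the 10 members with the highest fold in the line where it was lower, 8 were at one. So were 59 of the top 100 and 131 of the top 424 (30.9%). Over all members the share was 11.6% (492 of 4235, interval 10.7% to 12.6%), against 8.17% at 2.5 to 100 kb (7.82% to 8.53%). By distance it was 6.54% at 2.5 to 10 kb, 8.36% at 10 to 50 kb and 11.5% at 50 to 100 kb. It was 12.0% at 100 to 200 kb, 11.0% at 200 to 500 kb and 11.8% beyond 500 kb. The share at 50 to 100 kb was thus close to that of the members. The 492 had a median fold of 5.55 in C4-2B and 5.35 in C4-2BER, and the other 3743 had 3.91 and 4.10. A near-identical copy elsewhere was found for 56 of the 492 (11.4%), compared with 187 of all members (4.42%).

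The strongest member lay at the LINC01194 promoter between CTNND2 and DNAH5 (chr5:12573692-12575305), with H3K27ac at 38.7 in C4-2B and 27.4 in C4-2BER and H3K18ac at 13.5 and 11.2. C2orf27A, on chromosome 2 between CCDC74A and ANKRD30BL (chr2:131681648-131683535), followed with 36.2 and 25.3. That region has 2 near-identical copies. The DLEU2 promoter (chr13:50121247-50128602, between KCNRG and DLEU7), which starts a lncRNA of a region often deleted in leukaemia, had 30.6 and 23.2. The member on the microRNA gene MIR148A (chr7:25949602-25952891, between NPVF and NFE2L3) had 27.1 and 19.7. As deposited, all 10 strongest members were lower in C4-2BER for both marks, but with the lines rescaled as described below 8 of the 10 were higher in C4-2BER for H3K27ac, and 1 was with ratios centred by base composition. The 2 without a lncRNA promoter lay between GLRX3 and TCERG1L (chr10:130299498-130303046, 33.9 and 26.2) and between CNTNAP3C and FOXD4L5 (chr9:63858944-63860492, 31.3 and 20.2).

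**Figure D1:**
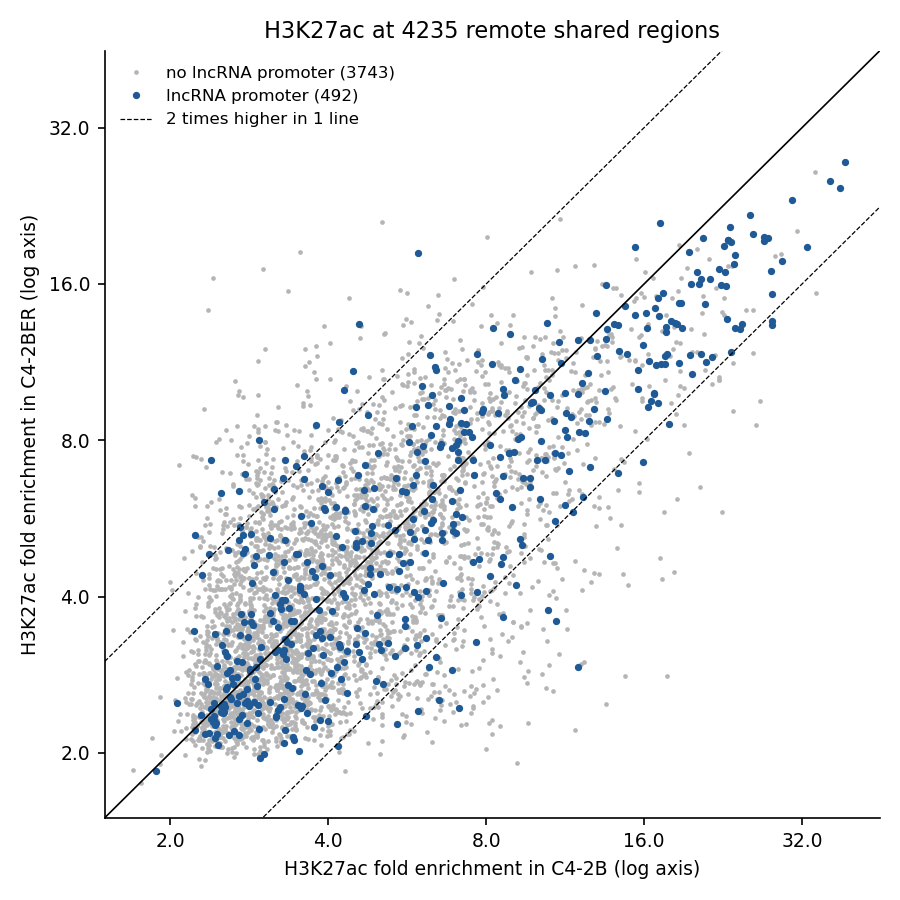
H3K27ac fold enrichment of each of the 4235 remote shared regions in C4-2B (horizontal, log axis) and C4-2BER (vertical, log axis), with the 492 at a lncRNA promoter in blue and the other 3743 in grey. The solid line marks equal values and the dashed lines a ratio of 2. Values are as deposited, where the 10 strongest members lie below the solid line (8 of them are higher in C4-2BER after rescaling), and the point farthest to the right is the LINC01194 promoter (38.7 and 27.4).

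Among lncRNAs known in prostate cancer, the SCHLAP1 promoter differed little between the lines. SCHLAP1, associated with aggressive prostate tumours, had H3K27ac at 20.7 in C4-2B and 19.6 in C4-2BER and H3K18ac at 11.6 and 11.7 (chr2:180691031-180694728). PCAT1, a prostate-cancer-associated transcript of the MYC region, had 3 promoter members with H3K27ac of 6.61 to 9.20 in C4-2B and 5.30 to 8.04 in C4-2BER. PVT1, downstream of MYC, had 6, of which the highest in C4-2B went from 9.30 to 5.17 (H3K18ac 5.61 to 4.00). LINC00511 had 7, of which the strongest went from 15.4 to 18.9 and the most changed (chr17:72406033-72409304) from 2.95 to 8.01, with H3K18ac from 2.26 to 3.92. The H3K27ac log2 ratios of the 6 others than the most changed were between -0.17 and 0.30. H3K18ac was lower in C4-2BER at the strongest (6.44 to 5.88) and at chr17:72516855-72520165 (8.33 to 4.55). It was higher at chr17:72610360-72619621 (3.71 to 4.84). These lncRNAs were picked by name with their values in view.

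Levels in the 2 lines were close on average, and with all peaks used more members were far apart than among all shared regions. The median log2 ratio was -0.02 (quartiles -0.39 and 0.36, range -2.66 to 2.76), and 2040 members were higher in C4-2BER. H3K27ac was higher in C4-2BER by at least 2-fold at 221 members (5.22%, interval 4.59% to 5.93%), where the share over all shared regions was 2.64%. It was higher in C4-2B by at least 2-fold at 228 members (5.38%, 4.74% to 6.10%), against 4.67% of all shared regions. In the comparison regions at 2.5 to 100 kb the shares were 3.38% (3.15% to 3.62%) and 3.94% (3.70% to 4.21%). The share higher in C4-2BER by at least 2-fold was 1.19% within 2.5 kb of a TSS, 2.97% at 2.5 to 10 kb, 3.55% at 10 to 50 kb, 3.77% at 50 to 100 kb, 5.02% at 100 to 200 kb, 5.14% at 200 to 500 kb and 5.82% beyond 500 kb. The share higher in C4-2B by that much was 5.56%, 3.34%, 4.42%, 3.74%, 4.08%, 6.66% and 6.07% in the same bins, above the C4-2BER share in both bins beyond 200 kb. These shares include weak peaks. With only H3K27ac peaks of at least 4-fold, 41 of 1619 members were higher in C4-2BER by at least 2-fold and 69 in C4-2B. Shares of other regions were not computed under that minimum.

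The balance of rises and falls depended on how the lines were scaled. The median log2 ratio of all shared regions under 15 kb was -0.17 as deposited. After rescaling by a robust line through all shared regions it was -0.03, and the members then counted 319 higher in C4-2BER by at least 2-fold and 163 in C4-2B. With the ratios centred within bins of G and C content the counts were 266 and 187. Under both, the share higher in C4-2BER by at least 2-fold stayed above that at 2.5 to 100 kb (7.53% against 4.94% rescaled, 6.28% against 4.30% centred). Base composition moved with the ratio. In the 847 members with the lowest G and C content (31.9% to 43.7%) the median log2 ratio was 0.07, with 74 members higher in C4-2BER by at least 2-fold and 60 in C4-2B. In the 847 with the highest (55.8% to 76.8%) the median was -0.19, with 3 and 25, so differences of this size in both directions were fewer there. Its part in the differences was not tested.

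H3K18ac, which was not used to choose the regions, was nearly always present, and it shared the direction of H3K27ac at about the same share of members as of regions nearer to genes. Of the 4235 members, 4017 (94.9%, 94.1% to 95.5%) had an H3K18ac peak in both lines, 155 (3.66%) in C4-2BER alone, 19 (0.449%) in C4-2B alone and 44 (1.04%) in neither. At 2.5 to 100 kb the share with peaks in both was 94.3%, and 2.59% had one in C4-2BER alone and 1.90% in C4-2B alone. The members' median H3K18ac log2 ratio was -0.04. H3K18ac was higher in C4-2BER by at least 2-fold at 46 of the 4017 (1.15%), against 0.368% of all shared regions with both peaks, and higher in C4-2B by at least 2-fold at 27 (0.672%), against 0.887%. All shared regions include those within 2.5 kb of a TSS, where the median H3K18ac log2 ratio was -0.27. In the bins from 2.5 to 100 kb it was -0.06 to -0.04, close to that of the members. Both marks were on the same side of equality at 3017 of the 4017 (75.1%), against 74.4% at 2.5 to 100 kb. Across the 4017 regions the log2 ratios had Pearson r = 0.71 and Spearman rho = 0.68, as a description, and at 2.5 to 100 kb these were 0.67 and 0.65 over 21268 regions. The points share the cell lines and the input libraries, and neighbouring members can lie under the same broad H3K18ac peak.

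The largest rises and falls in H3K27ac, among members with H3K18ac peaks in both lines, were of similar size and were smaller in H3K18ac. These members were picked by their H3K27ac ratio, so a smaller ratio in H3K18ac can follow from the choice alone. The largest rise lay within NKAIN3 (chr8:62711808-62713441), from 2.42 in C4-2B to 16.4 in C4-2BER, with H3K18ac from 3.15 to 8.45. The others were between CCDC179 and LUZP2 (chr11:23919665-23923169, 2.36 to 14.2), between NCAM2 and MRPL39 (chr21:23151085-23152108, 3.01 to 17.1), within MIR99AHG (chr21:16243873-16244712, 3.53 to 18.4) and between CYP7B1 and ARMC1 (chr8:65418408-65419559, 3.35 to 15.5). H3K18ac reached 8.18 to 9.13 in C4-2BER at these and was 2.56 to 3.79 in C4-2B. The largest fall lay within DIAPH2 (chrX:97409384-97410240), from 17.7 to 2.81, with H3K18ac from 9.70 to 2.93. The next were between SLITRK5 and GPC5 (chr13:90533376-90534003, 13.5 to 2.48), between NETO1 and FBXO15 (chr18:73755583-73757676, 11.8 to 2.22), between PHKB and ABCC12 (chr16:47896726-47897725, 14.7 to 2.82) and between MPDZ and NFIB (chr9:13586808-13588287, 9.15 to 1.91). H3K18ac fell less at the SLITRK5 member (5.96 to 3.65) than at the NFIB member (10.8 to 3.65). The DIAPH2 and PHKB members carry a LINE-1 stretch, described next.

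The LINE-1 stretch was found at a larger share of regions far from genes than near them. Members were compared with each other, and 758 (17.9%) shared at least 400 bp at 80% identity or more with another member, in 69 families. The largest family was searched with the sequence of its most linked member, between NEDD1 and TMPO, which was recognised from general knowledge as the 5′ end of a LINE-1 retrotransposon, without a repeat annotation. The stretch was found in 378 members (8.93%, 8.10% to 9.82%), in 423 of the 22546 regions at 2.5 to 100 kb (1.88%) and in 36 of the 17964 within 2.5 kb (0.200%). Among remote regions found in C4-2BER alone it was in 4.22% of 4171, and among those found in C4-2B alone in 6.45% of 2357. A near-identical copy over most of the region was found for 8 of the 378. That search kept the aligner's default filter on frequent sequence, so it can miss copies of abundant repeats. Reads from repeats with closely similar copies can be lost by the mapping-quality filter, so levels there are less certain, and the effect was not tested.

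Carriers close in sequence to the most linked member had similar median levels in both lines, and diverged carriers were lower in C4-2BER. At 90% identity or more, 290 members had a median fold of 4.18 in C4-2B and 4.50 in C4-2BER, with 5 higher in C4-2BER by at least 2-fold and 4 in C4-2B. The strongest of them lay between EOMES and CMC1 (chr3:28058991-28059790), with 23.2 and 19.5. Under 85% identity, 44 members (73.4% to 83.6%) had medians of 6.60 and 3.32. Of these 44, 17 were higher in C4-2B by at least 2-fold (38.6%, against 5.38% of all members). None was in C4-2BER, and 33 were higher in C4-2B. Their median H3K18ac log2 ratio was -0.29 over the 43 with both peaks, with 6 higher in C4-2B by at least 2-fold and 1 in C4-2BER. The 44 between these limits had 1 and 2 past a ratio of 2 in C4-2B and C4-2BER. Regions under 85% at 2.5 to 100 kb, which the rule did not choose, leaned the same way, with 16 of 119 higher in C4-2B by at least 2-fold and none in C4-2BER. The count of 17 became 15 after rescaling and 16 after centring by base composition. The boundaries of 85% and 90% were set with the values in view.

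**Figure D2:**
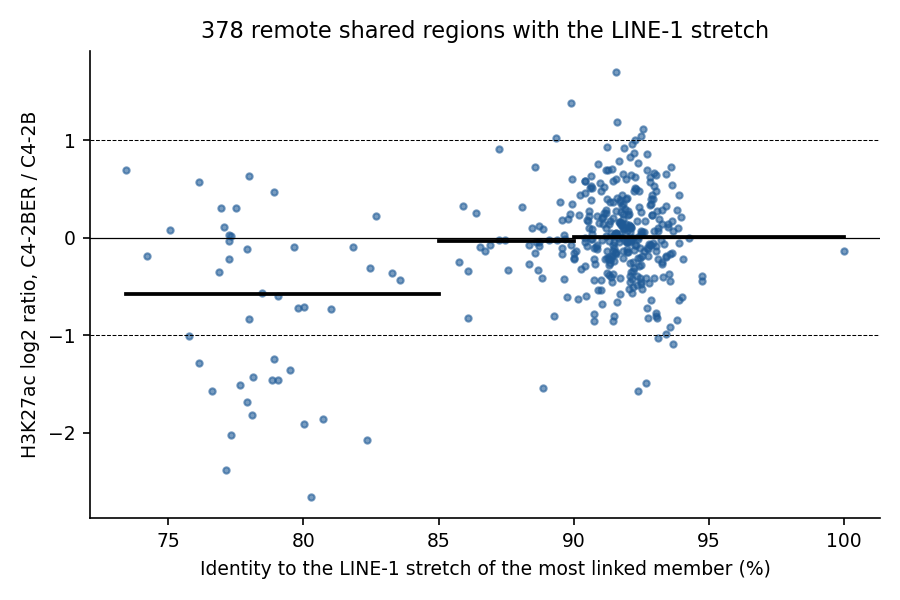
H3K27ac log2 ratio (C4-2BER over C4-2B, vertical) of the 378 members with the LINE-1 stretch against their identity to the most linked member in percent (horizontal). Thick lines are medians under 85%, from 85% to 90% and from 90%, and dashed lines mark a ratio of 2. The 17 points at or under the lower dashed line on the left belong to the 44 members under 85%, whose median is -0.58.

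At 13 of the 14 members that shared the printed repeat, H3K27ac was higher in C4-2BER. In C4-2B its H3K27ac fold was between 2.56 and 6.08 at these 13 and between 3.37 and 13.5 in C4-2BER. The exception, between CTH and PTGER3, had 11.6 and 10.9. At 10 of the 14 (71.4%) the value was higher in C4-2BER by at least 2-fold and at none in C4-2B, with a median log2 ratio of 1.11. Over all members these shares were 5.22% and 5.38%, and over all shared regions 2.64% and 4.67%. The highest in C4-2BER lay between the C1QTNF3-AMACR readthrough gene and RAI14 (chr5:34417351-34422874), from 5.75 to 13.5, with H3K18ac from 4.46 to 7.25. The largest ratio lay between CDH11 and CDH5 (chr16:65813188-65814526), from 3.76 to 10.8, with H3K18ac from 3.59 to 4.61. A member between PDGFRA and KIT, which encode receptor tyrosine kinases, went from 2.56 to 5.93 (chr4:54408884-54411012). H3K18ac had a median log2 ratio of 0.49 over the 13 with both peaks. At 2.5 to 100 kb, 20 other copies had a median log2 ratio of 0.58, with 6 higher in C4-2BER by at least 2-fold and none in C4-2B. Among remote regions of a single line, 25 of 4171 of C4-2BER carried the repeat (0.599%) and 1 of 2357 of C4-2B (0.0424%). AACCGGTT, bound by grainyhead factors such as GRHL2, was found in the central 1000 bp of 8 of the 14, against 25 of all 4235 members (0.590%) and 0.416% of all shared regions. The 14 were grouped by shared sequence, so letters within that sequence recur among them by construction, and the 8 are among the 25. The count therefore does not tie the motif to the rise, and the member with the largest ratio does not hold it. This family was described after its values were seen.

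**Figure D3:**
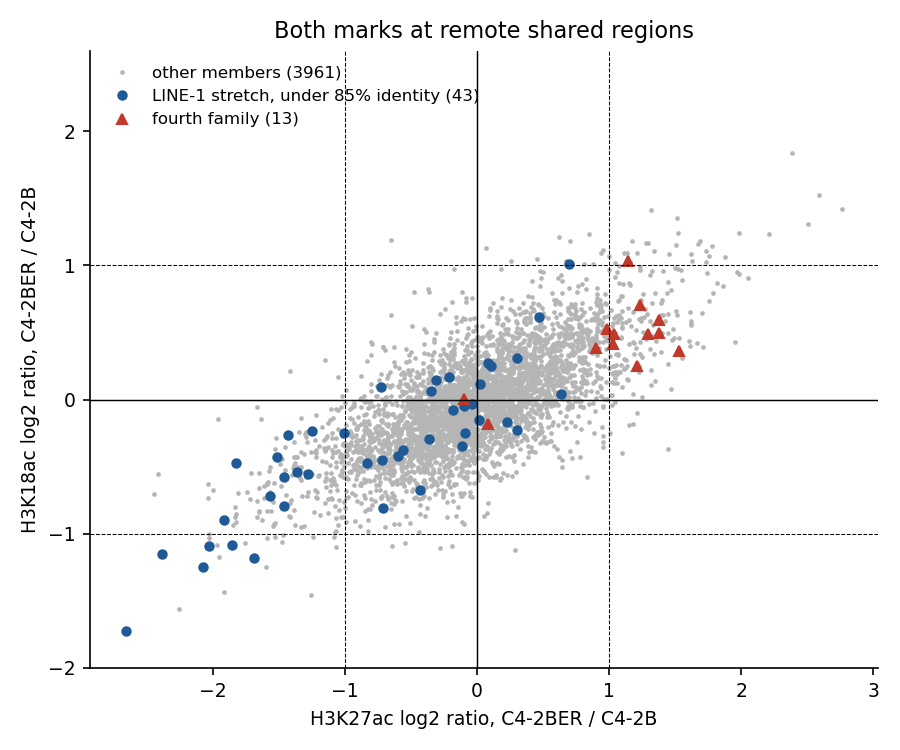
H3K27ac log2 ratio (horizontal) and H3K18ac log2 ratio (vertical), both C4-2BER over C4-2B, of the 4017 members with an H3K18ac peak in both lines. Blue circles are the 43 LINE-1 carriers under 85% identity, red triangles the 13 members of the 14-member repeat and grey points the other 3961, with dashed lines at a ratio of 2. Most triangles lie near or past a ratio of 2 on the right, and the lowest point on the left is the DIAPH2 member.

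A further family, found in 97 members, leaned toward C4-2B as deposited. Its median log2 ratio was -0.30, with 12 higher in C4-2B by at least 2-fold (12.4%) and 3 in C4-2BER (3.09%). Over all members these shares were 5.38% and 5.22%. After centring by base composition the family's median was -0.08, with 7 (7.22%) and 4 (4.12%), against 4.42% and 6.28% of all members. Its median G and C content was 60.3%. The family was found in 115 of the remote regions of C4-2B alone (4.88%) and 27 of those of C4-2BER alone (0.647%).

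The forkhead letters had a larger share among members than nearer to genes, and most LINE-1 carriers held them. In the central 1000 bp of each region, searched on both strands, TGTTTAC, the forkhead motif, was found in 25.7% of members, 17.6% of regions at 2.5 to 100 kb, 10.3% within 2.5 kb and 15.4% of all shared regions. Regions were also split into 5 bins by G and C content of these 1000 bp, with limits set on the members. From the lowest bin up, TGTTTAC was in 22.6%, 22.1%, 25.1%, 39.4% and 19.3% of members. At 2.5 to 100 kb it was in 24.5%, 20.3%, 17.4%, 18.4% and 9.66%, so members had no larger share in the lowest bin. TGTTTAC was found in 349 of the 378 carriers of the stretch (92.3%) and in 739 of the other 3857 members (19.2%), against 16.4% of the regions at 2.5 to 100 kb without the stretch. Of members without the stretch, 26 of the 214 higher in C4-2BER by at least 2-fold held it (12.1%, 8.43% to 17.2%), and 44 of the 206 higher in C4-2B by at least 2-fold (21.4%, 16.3% to 27.5%). AGATAA was found in 43.9% of members and 40.2% of regions at 2.5 to 100 kb, AGAACA in 52.9% and 51.1%, and CCAATAAA, a HOX13 motif, in 4.89% and 4.44%. Among all shared regions these shares were 34.9%, 46.4% and 3.82%. TGANTCA was found in 26.3% of members and 23.4% of all shared regions, CAGCTG in 48.3% and 45.0%, CAGATG in 53.0% and 47.1%, AGGGGGC in 14.9% and 22.7%, and the POU motif ATGCAAAT in 6.04% and 4.66%. All shared regions include those at promoters. Across the 5 bins TGANTCA was in 16.8% to 31.1% of members and 19.5% to 30.5% of regions at 2.5 to 100 kb. Members had the lower share except in the middle bin. The ranges for AGGGGGC were 4.71% to 35.3% and 3.55% to 37.9%, and for CAGCTG 24.6% to 69.7% and 23.8% to 62.7%. Letters typical of promoters were rarer than within 2.5 kb of a TSS. GGGCGG, the motif of SP and KLF factors, was in 27.1% of members and 63.8% of regions there. CCGGAAG, the ETS motif, was in 5.81% and 15.8%. Among all shared regions these shares were 43.4% and 9.81%. Against regions at 2.5 to 100 kb the difference varied with the bin. In the highest of the 5 bins GGGCGG was in 62.2% of members and 59.2% of those regions, and in the next in 25.3% and 33.8%. CCGGAAG was in 14.8% and 11.9%, then in 5.79% and 6.48%.

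Members often stood in rows. Linking members by gaps of at most 50 kb gave 2450 chains, of which 783 had 2 or more members and held 2568 (60.6%), and 22 had 10 or more. The longest stood far from the rest, with 75 members against 23 in the next. It covered 635 kb of chromosome 21 between USP25 and CXADR (chr21:15978355-16613731), all within or overlapping lncRNA genes, chiefly MIR99AHG, the host of a microRNA cluster. Chromosome 21 also had the densest members, 8.59 per Mb of DNA over 100 kb from a TSS, where the genome had 4.07, and 26 of its 168 members had a near-identical copy. None of the 75 had one.

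The MIR99AHG chain was on the whole higher in C4-2BER, but after centring by base composition it differed less from all members. Its median fold was 4.09 in C4-2B (highest 12.9) and 5.50 in C4-2BER (highest 18.4), and 52 of 75 members were higher in C4-2BER, 4 of them by at least 2-fold (5.33%, close to the 5.22% of all members, and 7 after rescaling), and none was lower by that much. The 4 rose from 2.83 to 5.72, 3.12 to 6.58, 3.03 to 7.96 and 3.53 to 18.4, with H3K18ac of 5.35 to 9.13 in C4-2BER and 2.56 to 3.53 in C4-2B. The chain's median log2 ratio was 0.17 for H3K27ac, 0.37 after rescaling and 0.17 after centring by base composition, and 0.13 for H3K18ac, with C4-2BER higher at 39 of the 62 members with both peaks. The H3K27ac medians of all members were -0.02, 0.07 and 0.12 in the same order. After centring, 48 of the 75 were higher in C4-2BER, and so were 2516 of all 4235 members. By position, 18 of the first 25 members, 20 of the middle 25 and 14 of the last 25 were higher in C4-2BER. Of the 75, 17 were at lncRNA promoters.

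**Figure D4:**
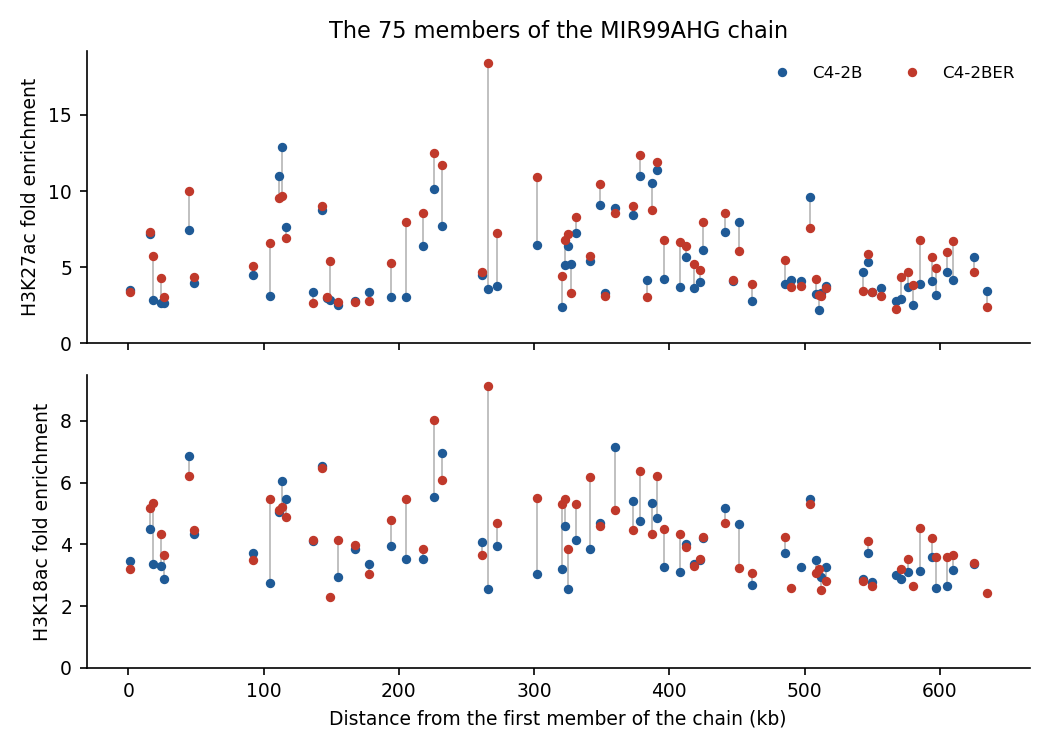
Fold enrichment of H3K27ac (top) and H3K18ac (bottom) at the 75 members of the MIR99AHG chain against distance from its first member in kb. Blue points are C4-2B, red points C4-2BER, and grey lines join the values of a member, which lack 1 end where a line had no H3K18ac peak. Red lies above blue at 52 members for H3K27ac, and the tallest is the member that went from 3.53 to 18.4.

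Of 1562 annotated microRNA hairpins, 40 lay within 10 kb of a member and 4 on one (MIR148A, MIR5087, MIR5682 and MIR7158). The mature sequences of MIR148A, on the strongest of these members, and of the cluster within the MIR99AHG chain are given from RefSeq (GRCh38.p14), with the seed, bases 2 to 8, in capitals. No 2 of them share a seed.
miR-148a-3p: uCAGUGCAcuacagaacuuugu
miR-99a-5p: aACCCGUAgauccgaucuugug
let-7c-5p: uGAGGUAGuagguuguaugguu
miR-125b-5p: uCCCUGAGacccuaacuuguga
MIR99A and MIRLET7C lay 3590 and 4327 bp (from the mature sequences) beyond a member with H3K27ac at 3.66 in C4-2B and 3.12 in C4-2BER (chr21:16533728-16535511). MIR125B2 lay 1382 bp beyond a member at 4.18 and 6.72 (chr21:16587081-16588871). The microRNAs themselves were not measured.

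The other 9 chains of the longest 10 differed in direction. A chain of 23 between GPR149 and MME, a membrane peptidase of prostate epithelium, had a median log2 ratio of -0.20, with 3 higher in C4-2B by at least 2-fold and none in C4-2BER. The 20 between GADD45G and DIRAS2 had a median of 0.29, and the 17 between MYC and GSDMC, over PVT1, had -0.06. Medians were 0.16 for the 16 between RPS24 and ZMIZ1, 0.25 for the 15 between SOX9 and SLC39A11, and 0.41 for the 15 between DIPK2B and KRBOX4, of which 4 lay in a lncRNA gene (MIR222HG or ENSG00000269902). The remaining 3 chains had 14 members each and medians of -0.10 (TBL1XR1 and KCNMB2), -0.16 (IER5L and NTMT1) and 0.24 (OPA1 and HES1). H3K18ac did not share the sign of these medians in the GPR149 chain (median log2 ratio 0.03, C4-2BER higher at 12 of 23), the SOX9 chain (-0.13, 6 of 15), the DIPK2B chain (-0.02, 6 of 12 with both peaks) and the OPA1 chain (-0.01, 7 of 14). After rescaling, the sign of the GPR149 chain's median changed (0.02), and centring by base composition changed the sign for MYC (0.12) and IER5L (0.11). Around LUZP2, 12 of 40 members were higher in C4-2BER by at least 2-fold (30%) and 1 in C4-2B (2.5%), with a median log2 ratio of 0.41. Over all members these shares were 5.22% and 5.38%. This gene was picked after its values were seen.

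Members flanking luminal and neuroendocrine regulators were then listed, from 2 lists of genes named for their known roles. A gene was counted where its TSS was the nearest protein-coding TSS on either side of a member, which does not show that the member acts on it. Of 14 luminal genes, 6 flanked 58 members. Of these 58, 41 were higher in C4-2BER, 3 by at least 2-fold (6 after rescaling and 5 after centring by base composition), and 1 was at least 2-fold lower, with a median log2 ratio of 0.21. Of 17 neuroendocrine and neuronal regulators, 8 flanked 48 members, of which 15 were higher in C4-2BER, none by at least 2-fold, and 10 were at least 2-fold lower, with a median of -0.26. Over all members the median was -0.02, with 5.22% and 5.38% past those limits. The medians were 0.28 and -0.19 after rescaling and 0.24 and -0.05 after centring by base composition. C4-2BER had the higher H3K18ac at 35 of 57 members of the first list and 15 of 46 of the second. The members of a list are few loci and not independent.

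The luminal genes had mixed flanks. TBX3, a T-box regulator of epithelial development, flanked 26 members, of which 22 were higher in C4-2BER, with folds of 2.29 to 13.6 in C4-2B and 2.13 to 12.5 in C4-2BER. SOX9, a progenitor transcription factor, flanked 16, from a rise of 2.95 to 8.01 at the LINC00511 member above to a fall of 15.6 to 6.37 (chr17:72373826-72375263), and C4-2BER had the higher H3K18ac at 7 of the 16. TFAP2C flanked 9, of which 3 were higher, and GRHL2, the epithelial grainyhead factor, flanked 4, of which 3 were higher. KLF5 flanked 2 and TMPRSS2, an androgen-regulated protease, 1 (3.64 to 5.31). FOXA1, HOXB13, GATA2, GATA3, ESRP1, KLK3, FKBP5 and ZBTB16 flanked none.

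SOX11, a neuronal transcription factor, flanked 22 members, among them the largest fall of either list. At that member (chr2:4138954-4141184), which is at a lncRNA promoter and lies nearer to DCDC2C (295 kb) than to SOX11 (1551 kb), H3K27ac went from 12.0 to 2.92 and H3K18ac from 6.58 to 3.97. A pair nearer SOX11 (201 and 198 kb) went from 9.41 to 3.12 (chr2:5489241-5491347) and from 12.8 to 4.45 (chr2:5492648-5494384), with H3K18ac from 6.23 to 3.06 and 8.80 to 4.65. The other 3 falls of at least 2-fold lay 1445, 808 and 257 kb from SOX11. In all, 6 of the 22 were higher in C4-2B by at least 2-fold as deposited and 4 under each other scaling, and 6 of the 22 were higher in C4-2BER, up to 8.71 to 11.0 at chr2:5442344-5442963. SOX2, a pluripotency and neuroendocrine factor, flanked 7 members, of which 4 were higher in C4-2BER. POU3F4 flanked 6, with 1 higher, FOXA2 flanked 4, with none higher, and POU3F2 (BRN2) and MYCN flanked 3 each. PAX5, a B-cell regulator also expressed in neural tissue, flanked 2 members with H3K27ac going from 3.40 to 3.59 at one and from 3.60 to 2.87 at the other, and PROX1 flanked 1. NEUROD1, NEUROG2, INSM1, ONECUT2, NKX2-1, NKX2-2, LHX2, ISL1 and EZH2 flanked none.

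**Figure D5:**
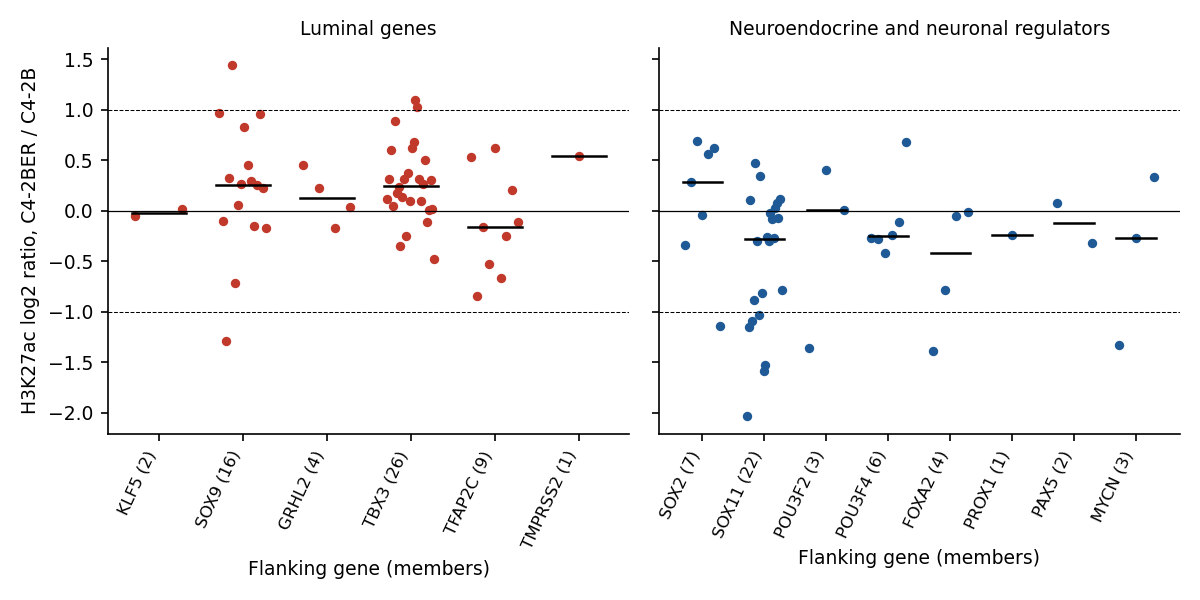
H3K27ac log2 ratio (C4-2BER over C4-2B) of members flanking luminal genes (left, red) and of neuroendocrine and neuronal regulators (right, blue), by flanking gene with its number of members. Points are members in genome order, thick lines are medians, dashed lines mark a ratio of 2, and genes without a member are not drawn. Of the 26 TBX3 points 22 lie above 0, and the lowest SOX11 point is the member that went from 12.0 to 2.92.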

How the data were processed

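The 4 peak lists, 1 for each mark (H3K27ac, H3K18ac) in each line (C4-2B, C4-2BER), were analysed. Per the study's methods, the authors aligned reads to hg38 with Bowtie2, removed blacklisted positions, low mapping qualities and duplicates, merged the 2 replicates and called broad peaks with MACS2. The deposited lists give each peak a fold enrichment over background (a ratio), which supplied every value here. The deposited −log10 q-values were used only in 1 alternative, and the deposited scores and −log10 p-values were not used. Read counts are not in these lists, so depth and precision per value are unknown.

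Regions were merged, measured and annotated against GENCODE release 44 in Python 3.11.15 (pandas 2.3.3, statsmodels 0.14.6 for the robust line), and the steps were tested on simulated peaks. A near-identical copy was a minimap2 2.31 alignment at 95% identity over 50% of a region. Repeat families joined members sharing 400 bp at 80% identity (minimap2) and were searched in all regions with blastn 2.17.0 (E at most 1e-20). Base content used 20 bins. Named members were the 10 strongest, the 5 largest rises and falls with H3K18ac in both lines, the 3 farthest, those nearest the thresholds, the 10 longest chains and flanking genes of the 2 lists. The members and lists were chosen with earlier results of these data known, and SCHLAP1 and other named lncRNAs, host genes, LUZP2, the microRNAs and the repeat families were picked after their values were seen. Some genes of the lists and some sequences are not reported here.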

Additional observations from a re-analysis of the deposited data

How the results depend on the processing

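Of 50 values recomputed under 12 alternatives, 30 stayed within 1.5 times (counts) or within the 95% interval (medians and shares) of the value given. The number of remote shared regions, 4235, was 7470 at over 50 kb, 1818 at over 250 kb, 7852 with 1 TSS per gene, 1619 with H3K27ac peaks of at least 4-fold and 2441 with −log10 q of at least 5. The median H3K27ac log2 ratio was -0.044 at over 250 kb, -0.052 with the q minimum, 0.072 rescaled and 0.119 centred by base composition, and that of H3K18ac was 0.123 rescaled and 0.068 centred, so the sign of both medians rests on the scaling. Members higher by at least 2-fold numbered 41 (C4-2BER) and 69 (C4-2B) with the 4-fold minimum, and 84 and 133 with the q minimum. These minimums leave fewer peaks, and the counts are of 1619 and 2441 members. Under both, more members were higher in C4-2B than in C4-2BER by that much. Shares of other regions were not computed under them. H3K18ac peaks in both lines were found at 93.9% over 250 kb, 98.5% with the 4-fold and 96.7% with the q minimum for H3K27ac, and 38.2% when H3K18ac peaks had to reach 4-fold. The share at lncRNA promoters was 9.22% with 1 TSS per gene. The cause of the other shifts was not tested. Leaving out members with a near-identical copy or with the LINE-1 stretch, both chosen after seeing the data, moved none of the 7 results past these limits. No paired analysis was possible because the replicates had been merged before peaks were called, and for the same reason no replicate could be left out.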
